A study of Mus musculus with 18 samples.

Results

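The 8 genes described here encode the enzymes that burn fatty acids in liver mitochondria and an enzyme that finishes a ketone body: Cpt1a, Cpt2, Acadm, Acadl, Acadvl, Hadha, Hadhb and Bdh1. They were taken by symbol from a liver RNA sequencing table, as 8 of its 19057 symbols, and each had a value in all 18 libraries. Every library was made from the liver of an ICR mouse (an outbred laboratory stock) of 10 weeks, and the study describes its animals as males. There were 3 mice in each of 6 groups. Con mice received a regular diet and saline. STZ mice received 1 injection of streptozotocin, a toxin taken up by the insulin-producing beta cells of the pancreas, which served as the model of type 1 diabetes. A10-FMT mice received streptozotocin and then, by mouth, small intestine microbiota pooled from donors that had been given alginate oligosaccharide (AOS) at 10 mg/kg. Con-FMT mice received streptozotocin and then microbiota pooled from control donors. AOS mice received AOS at 10 mg/kg and no streptozotocin, and STZ+AOS mice received both, with AOS at the same dose. The AOS and STZ+AOS groups are known only from the sample labels. The 4 groups that received streptozotocin therefore share it, and the Con and AOS groups lack it.

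Long-chain fatty acids enter the mitochondrion bound to carnitine, and are then shortened in repeated rounds that yield acetyl-CoA and hand electrons to the respiratory chain. In the liver, acetyl-CoA that is not oxidised further is turned into ketone bodies, which other tissues use as fuel. This route is known to be active in fasting and when insulin is low, conditions in which fatty acids reach the liver from adipose tissue.

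Cpt1a, the outer membrane transferase that loads fatty acids onto carnitine and sets the pace of entry, lies on chromosome 19 (GRCm38, 3322334 to 3385733, plus strand). Cpt2, its inner membrane partner that returns them to coenzyme A, lies on chromosome 4 (107903981 to 107923610, minus strand). Acadvl, Acadl and Acadm, the acyl-CoA dehydrogenases for very long, long and medium chains, lie on chromosomes 11, 1 and 3. Bdh1, which makes and uses 3-hydroxybutyrate, lies on chromosome 16. Hadha and Hadhb, the alpha and beta subunits of the trifunctional protein that carries out the later steps on long chains, lie head to head on chromosome 5, Hadha on the minus strand (30118304 to 30155162) and Hadhb on the plus strand (30155248 to 30184593). Acadvl shares 2119 bases with Dvl2 on the other strand, and Dvl2 was listed at 1.07 to 3.82 RPKM. RPKM, the unit of all levels here, is the reads of a gene per kilobase of its transcript, scaled to the mapped reads of the library.

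The stretch between Hadha and Hadhb is shown because it separates the GENCODE gene starts of the 2 subunits. It is 85 bases long, 69.4% G or C, and lies at chr5:30155163-30155247 (plus strand of GRCm38). The capitals mark GGGCGG, the GC box, which it holds 2 times. RefSeq, the source of the windows below, starts Hadha further inside the gene, and the first of these boxes lies at -188 from that start.
Hadha-Hadhb: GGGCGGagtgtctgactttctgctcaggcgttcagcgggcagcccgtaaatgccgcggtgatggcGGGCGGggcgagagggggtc

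RefSeq windows of 250 bases before to 50 bases after the start (GRCm38.p6) were found for all 8 genes, with 9 windows in all because Bdh1 has 2. GGGCGG was found on either strand in 6 of the 9 windows, and in 35.7% of all 32851 windows. Acadl held the most matches upstream of its start, 4 within 90 bases (chr1:66863310-66863399, minus strand), and Hadhb held as many over its whole window. The Acadl window was 70.3% G or C, above 90.9% of all windows. In the line below, the capitals mark CCGCCC, the same motif read from the other strand.
Acadl: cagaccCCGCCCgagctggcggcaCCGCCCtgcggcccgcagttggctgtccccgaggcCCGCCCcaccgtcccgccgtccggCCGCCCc

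The half-site AGGTCA, the letters that nuclear receptors such as PPAR alpha and HNF4 alpha recognise, was found in 3 of the 9 windows and in 16.3% of all windows. Those 3 matches are shown with the half-site, or its reverse TGACCT, in capitals. They lie at chr19:3323195-3323224 (plus strand), chr11:70015498-70015527 and chr3:153944875-153944893 (both minus strand).
Cpt1a: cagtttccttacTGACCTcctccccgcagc
Acadvl: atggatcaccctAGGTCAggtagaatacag
Acadm: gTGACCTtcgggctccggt
The spaced repeat AGGTCANAGGTCA, searched on both strands with up to 2 mismatches, was found in 0 of the 9 windows and in 3.86% of all windows. The longer TCAAGGTCA was found in 0 and 0.423%, the TATA box TATAAA in 0 and 13.6%, and CCAAT in 1 (Cpt1a) and 37.4%. These are matches of letters within these windows and describe nothing beyond them.

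Between 9955 and 10409 genes per library reached 1 RPKM. Read totals are not part of the table, so no counting interval is given. The steps of low values put the libraries' depths at 0.929 to 1.07 times their geometric mean. This is a rough estimate from 17 genes, without an interval. The RPKM of all genes summed to 749557 to 806937 in Con and to 631126 to 684659 in STZ. Of the marker lists, the hepatocyte markers had the largest summed level in all 6 groups. Over the Con and STZ libraries it was 47414 to 76463 RPKM. Alb, the albumin gene, averaged 30344 RPKM in Con and 30089 RPKM in STZ. In STZ against Con, 1 of 9 hepatocyte markers rose and 3 fell, 2 of 8 Kupffer cell markers rose, 2 of 7 endothelial and 2 of 8 stellate cell markers rose, 1 of 3 cholangiocyte markers fell and 1 of 6 red cell markers fell, where 33% of all genes were called higher and 5.52% lower. The Kupffer cell markers summed to 64.3 to 96.7 RPKM in Con and 96.2 to 212 RPKM in STZ. The adipocyte markers summed to at most 0.24 RPKM in Con and 0.12 RPKM in STZ, 1 of the 7 lymphocyte markers in the table (Ptprc) passed the filter and was not called, and of the pancreas markers Prss1 and Ins1 were at 0 in both groups while Cela1 fell. In Con-FMT the red cell markers summed to 3648 to 9977 RPKM, above the 1582 to 3124 RPKM in Con, and 0 of 6 were called. The part of these shifts in the results was not tested, and in whole tissue fewer cells of a type and less RNA per cell cannot be told apart.

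The comparison of STZ with Con asks how the fatty acid oxidation genes stood in the diabetic liver. All 8 were higher in STZ than in Con, and in all 8 the lowest STZ mouse was above the highest Con mouse. Cpt1a stood 2.97 times higher by group means, Acadl 2.57 times and Cpt2 1.50 times. Together the 8 genes summed to 520 to 724 RPKM in the Con mice and 1073 to 1384 RPKM in the STZ mice.

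Cpt1a was listed at 39.91, 42.94 and 40.46 RPKM in Con mice 1, 2 and 3, and at 163.03, 104.57 and 98.86 RPKM in the STZ mice. The Con mice lay close together, and STZ mouse 1 stood far above the other STZ mice. The change was 1.51 on the log2(RPKM + 1) scale (SE 0.23, adjusted p = 0.00116). Changes and p-values here come from limma, a linear model with a spread moderated across genes, with p-values adjusted by Benjamini-Hochberg over the 10602 genes tested, and a gene with an adjusted p under 0.05 is said to have risen or fallen. Cpt2 was listed at 46.12, 61.37 and 55.33 RPKM in Con and at 70.37, 77.18 and 97.32 RPKM in STZ. Here mouse 3, not mouse 1, was the highest STZ mouse, and the change was the smallest of the 8 at 0.58 (SE 0.17, adjusted p = 0.0243).

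**Figure D1:**
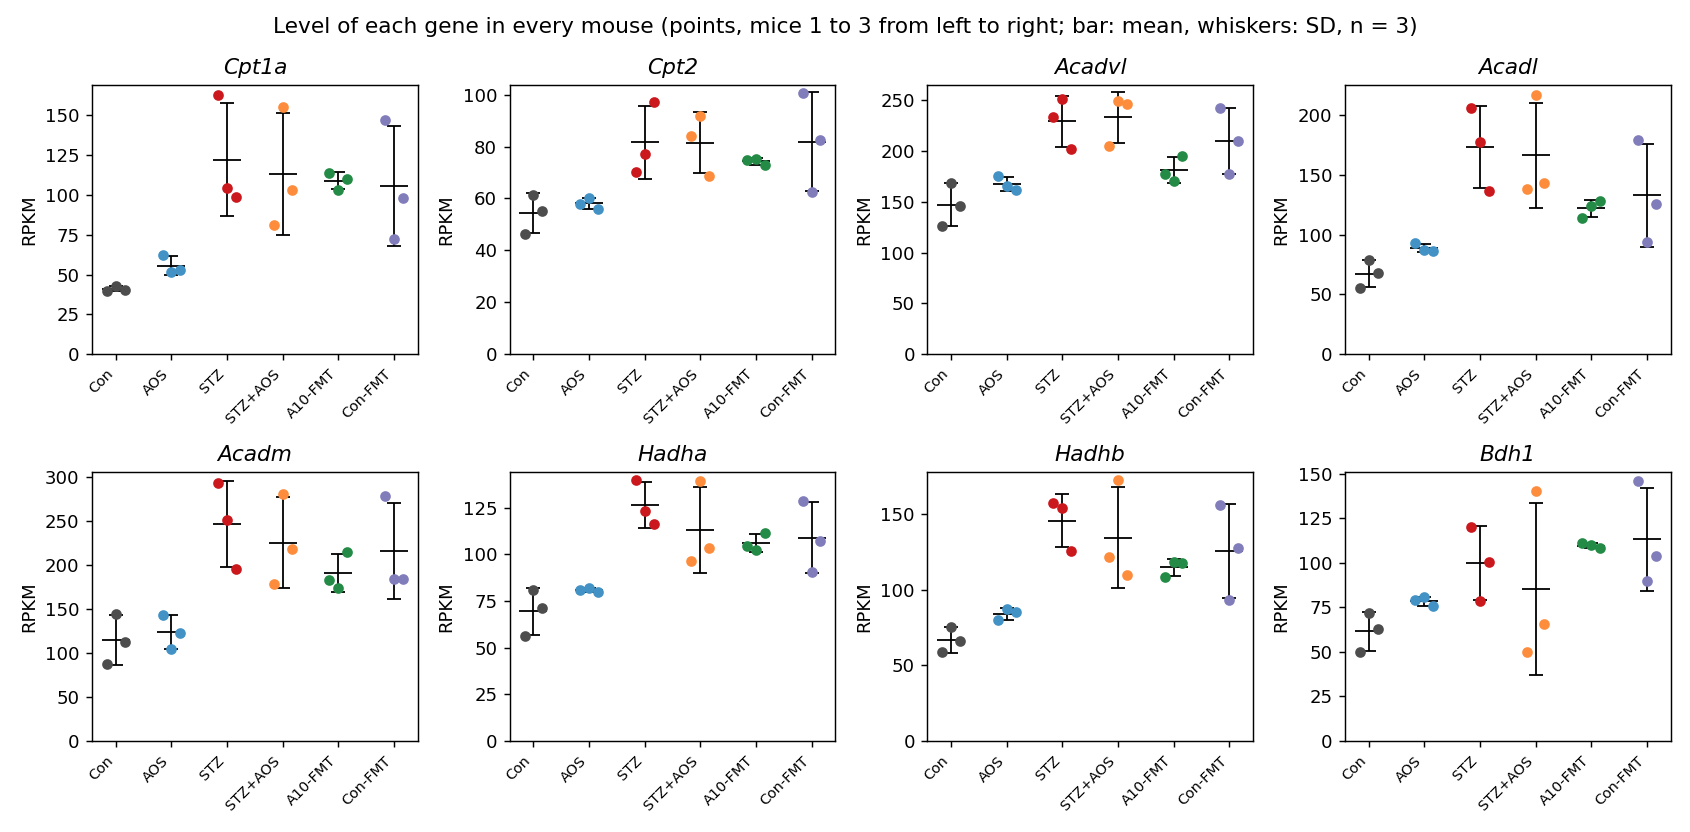
RPKM (y axis, from 0) of each of the 8 genes in every mouse of the 6 groups (x axis); points are mice 1 to 3 from left to right, the bar is the mean and the whiskers the SD (n = 3). In 7 of the 8 genes all 12 mice given streptozotocin lie above every Con mouse, while for Bdh1 10 of 12 do. The share of all genes with all 12 above was not counted, and for the STZ mice alone it was 40.8%.

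The 3 acyl-CoA dehydrogenases rose by unequal amounts. Acadl was listed at 55.62, 78.47 and 68.19 RPKM in Con and at 205.96, 177.66 and 136.97 RPKM in STZ, a change of 1.34 (SE 0.22, adjusted p = 0.00154). Acadm was listed at 87.82, 144.97 and 112.07 RPKM in Con and at 293.49, 251.76 and 195.81 RPKM in STZ, a change of 1.11 (SE 0.22, adjusted p = 0.00351). Acadvl was listed at 126.20, 168.59 and 146.33 RPKM in Con and at 233.45, 251.81 and 202.44 RPKM in STZ, a change of 0.64 (SE 0.15, adjusted p = 0.00696). Per length, Acadvl was the most abundant of the 8 in Con with 147 ± 21.2 RPKM (SD, n = 3), and Acadm in STZ with 247 ± 49.0 RPKM (SD, n = 3). Acadl was thus under the level of Acadvl in all mice of both groups, and closer to it in STZ.

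Both subunits of the trifunctional protein rose. Hadha was listed at 56.12, 80.69 and 71.42 RPKM in Con and at 140.05, 123.37 and 116.10 RPKM in STZ, a change of 0.87 (SE 0.15, adjusted p = 0.00219). Hadhb was listed at 58.72, 75.54 and 65.70 RPKM in Con and at 157.44, 153.58 and 125.40 RPKM in STZ, a change of 1.11 (SE 0.17, adjusted p = 0.00117). In both, Con mouse 1 was the lowest mouse and STZ mouse 1 the highest. Bdh1 was listed at 49.91, 71.89 and 62.77 RPKM in Con and at 120.15, 78.57 and 100.09 RPKM in STZ, a change of 0.68 (SE 0.20, adjusted p = 0.0203). For Bdh1 the lowest STZ mouse was only slightly above the highest Con mouse.

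Counted against all genes, 8 of 8 were called and all were higher, where 38.5% of all 10602 genes were called and 33% were called higher; in 40.8% of all genes every STZ mouse was above every Con mouse. The median change of the 8 was 0.99, and that of all genes was 0.21. The 8 ranked from above 84.6% of all genes (Cpt2) to above 98.1% (Cpt1a). Relative to the median of all genes the changes were 1.30 for Cpt1a, 1.13 for Acadl, 0.90 for Hadhb, 0.89 for Acadm, 0.65 for Hadha, 0.47 for Bdh1, 0.43 for Acadvl and 0.36 for Cpt2.

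With a scaling that brings the median of all genes to about 0, the calls for Cpt2 and Bdh1 were lost and the other 6 were kept. Under median-ratio scaling the adjusted p was 0.177 for Cpt2 and 0.0977 for Bdh1, and 1480 genes were called higher and 1402 lower, where the deposited values gave 3502 and 585. Over the 15 alternatives that kept the threshold of 0.05 Cpt2 was called in 9 (adjusted p 0.0140 to 0.177) and Bdh1 in 10 (0.0164 to 0.0977). Cpt1a, Acadl, Acadm, Acadvl, Hadha and Hadhb were called in 15 of 15. The study's stricter limits, an FDR of 0.001 and a log2 ratio of 1, were applied here to the limma values, and 0 of the 8 passed. The study itself used these limits with another test, DEGseq, so its own calls may differ. Con mouse 1 was the lowest Con mouse for 8 of the 8 genes and for 62.2% of all genes; without it 6 of the 8 were called, and Cpt2 (0.0961) and Bdh1 (0.0841) were not. The call for Bdh1 was also lost without STZ mouse 1 (0.0730), and that for Cpt2 without STZ mouse 2 (0.0515), STZ mouse 3 (0.0607) or Con mouse 3 (0.0574). When all 18 libraries were fitted together Bdh1 had an adjusted p of 0.0706.

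**Figure D2:**
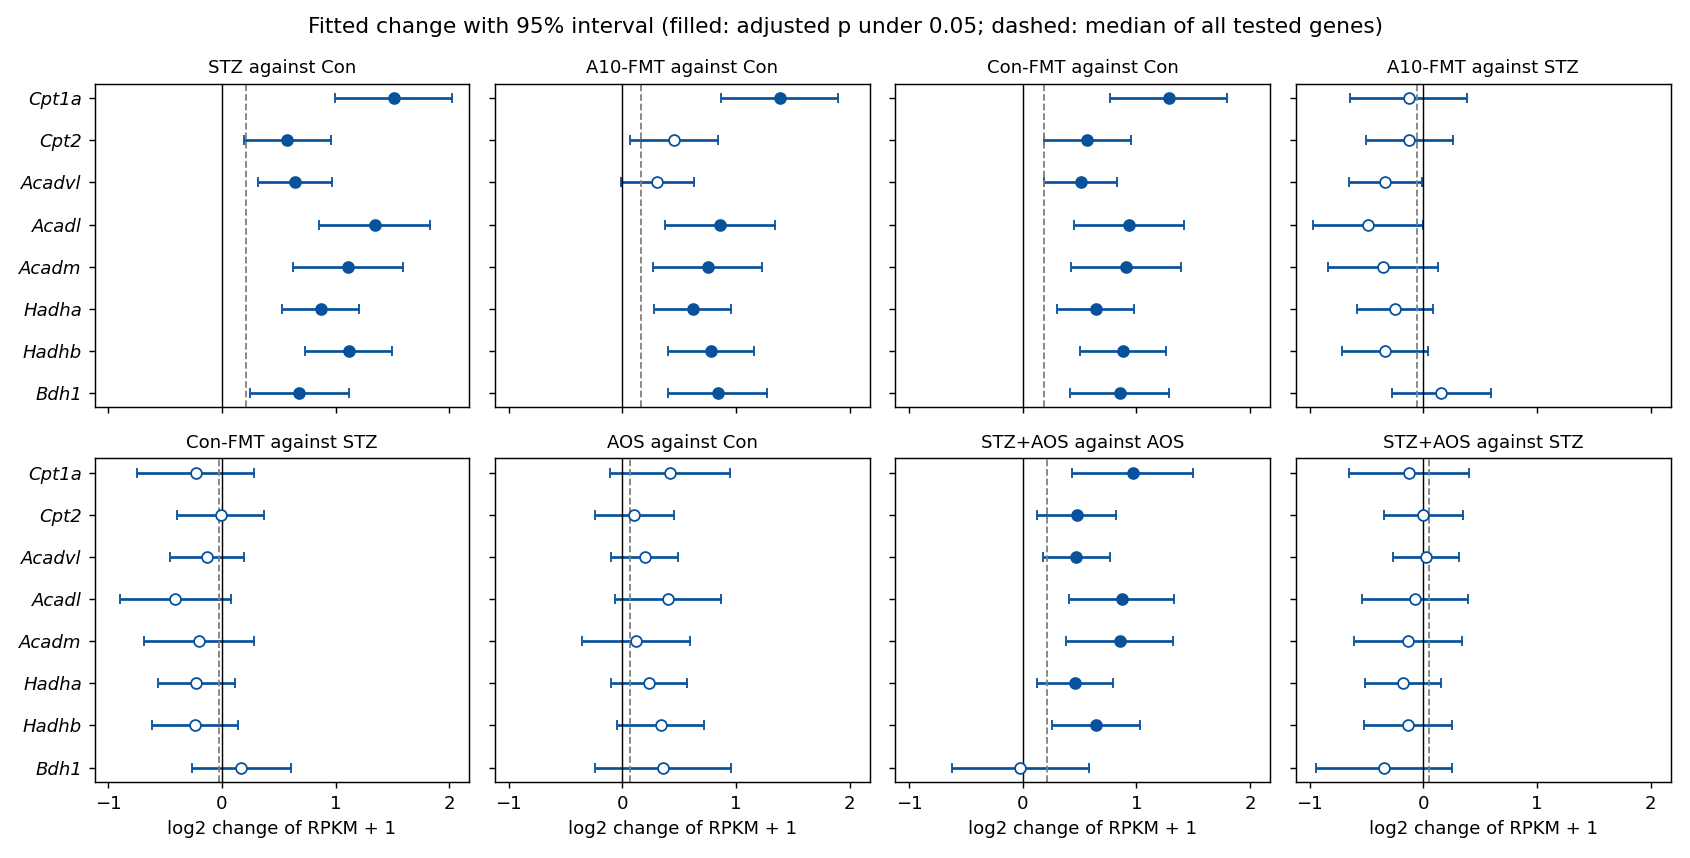
Fitted log2 change of RPKM + 1 (x axis) of the 8 genes (rows) in 8 comparisons, with 95% intervals; filled points passed an adjusted p of 0.05 and the dashed line is the median change of all genes tested. The points of STZ against Con are all filled and lie right of the dashed line, and none is filled in the comparisons of A10-FMT, Con-FMT or STZ+AOS with STZ.

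Ratios of paired genes within a mouse do not depend on library scaling. Hadha to Hadhb, the alpha to the beta subunit, stood at 0.956, 1.07 and 1.09 in Con and at 0.890, 0.803 and 0.926 in STZ, so every STZ mouse was under every Con mouse. The means were 1.04 ± 0.0710 (SD, n = 3) and 0.873 ± 0.0629 (SD, n = 3), a difference of -0.25 in log2 with an exact two-sided permutation p of 0.1, the smallest that 3 against 3 mice allow. The difference thus could not reach the threshold, whatever its size.

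Cpt1a to Cpt2, the outer to the inner carnitine transferase, stood at 0.865, 0.700 and 0.731 in Con and at 2.32, 1.35 and 1.02 in STZ. Cpt1a was below Cpt2 in every Con mouse and above it in every STZ mouse. Acadl to Acadvl stood at 0.441, 0.465 and 0.466 in Con, 0.528, 0.525 and 0.536 in AOS, and 0.882, 0.706 and 0.677 in STZ. The AOS mice were close together here and lay between the Con and the STZ mice without overlap. Acadm to Acadvl did not show this order. It stood at 0.696, 0.860 and 0.766 in Con and at 0.816, 0.630 and 0.763 in AOS, so these groups overlapped. In STZ it stood at 1.26, 1.00 and 0.967. These last ratios are given as descriptions, with no test.

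**Figure D3:**
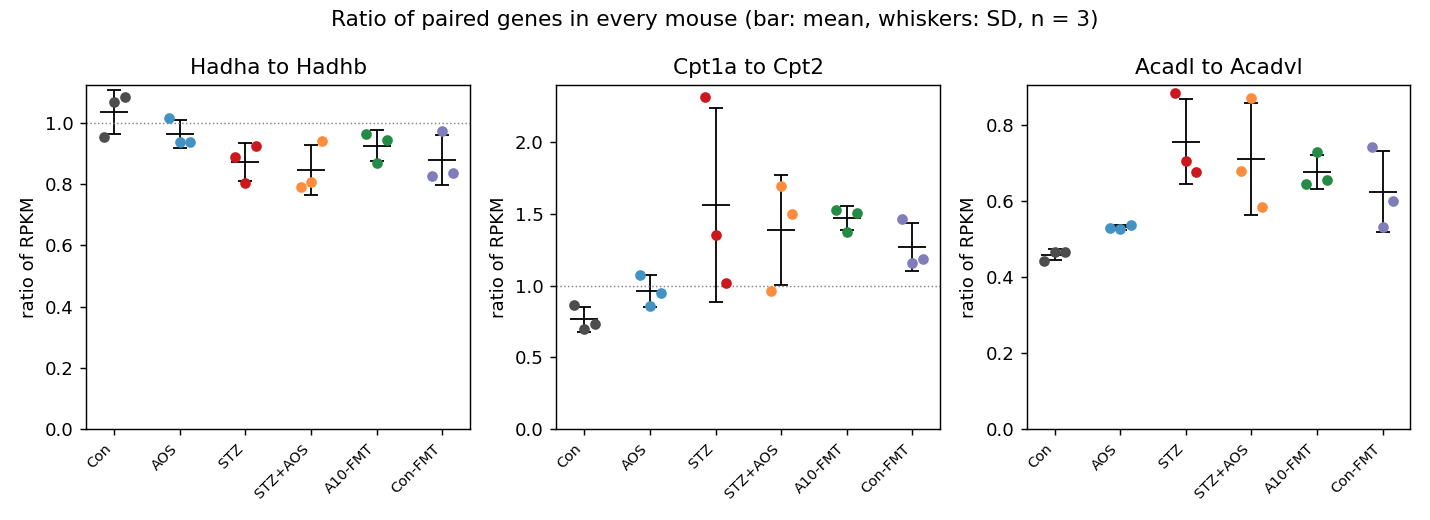
Ratio of RPKM (y axis, from 0) of Hadha to Hadhb, Cpt1a to Cpt2 and Acadl to Acadvl in every mouse of the 6 groups (x axis), with the mean and SD (n = 3). In Con the means are 1.04, 0.765 and 0.457, and in STZ 0.873, 1.56 and 0.755.

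The other genes of the pathway were read from 5 lists with 57 genes, of which 52 passed the filter. In STZ against Con 28 rose, 3 fell and 21 did not pass the test, with a median change of 0.43 beside 0.21 for all genes, of which 33% were called higher and 5.52% lower. Under either scaling alternative 19 were higher, where 14% of all genes were.

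Of the genes for entry and activation 5 of 11 rose and none fell. Crat, the carnitine acetyltransferase, rose by 1.34 (adjusted p = 0.00702). Slc22a5, the carnitine importer of the cell membrane, rose by 1.19 (adjusted p = 0.00172), from 4.30 ± 0.247 to 11.1 ± 1.27 RPKM (SD, n = 3). Acsm3, a medium-chain acyl-CoA synthetase, rose by 0.86, and Slc25a20, the carnitine-acylcarnitine exchanger of the inner membrane, by 0.85 (adjusted p = 0.00288). Cpt1b, the muscle form of Cpt1a, was near the filter with means of 0.897 RPKM in Con and 1.16 RPKM in STZ and was not called (0.16, adjusted p = 0.444).

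In the list named matrix beta-oxidation 11 of 16 genes rose and none fell. Where in the cell each of these enzymes acts was not checked, so the count is not one of mitochondrial enzymes alone. The largest change was that of Acad10 (1.60, adjusted p = 0.00201), an acyl-CoA dehydrogenase family member. Eci2, an enoyl-CoA isomerase needed for unsaturated chains, rose by 1.26, and Acad11, of the dehydrogenase family, by 1.10. All 3 genes of electron transfer rose: Etfdh by 0.90 and Etfa by 0.74, and Etfb by 0.46 (adjusted p = 0.0450), a call that was lost under both scalings and without any 1 mouse other than STZ mouse 3 (adjusted p up to 0.153).

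The ketone body genes were mixed, with 3 of 8 higher and 2 lower. Slc16a7, a monocarboxylate transporter, rose by 2.21 (adjusted p = 0.000885). Aacs, a cytosolic synthetase that directs acetoacetate to lipid synthesis, fell from 20.71, 49.06 and 36.25 RPKM in Con to 9.74, 3.11 and 11.22 RPKM in STZ, a change of -2.08 (adjusted p = 0.00673). Slc16a6, a transporter linked to ketone body export, changed by -0.60 (adjusted p = 0.0354), a call that was lost without STZ mouse 1 (0.119), STZ mouse 2 (0.0743), Con mouse 2 (0.113) or Con mouse 3 (0.0905).

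Of the genes for control of the pathway 6 of 14 rose and 1 fell. Ppargc1a, a coactivator of mitochondrial genes, rose by 1.86 (adjusted p = 0.00105) from low levels of 0.56, 0.77 and 0.68 RPKM to 4.72, 8.84 and 2.98 RPKM. Sirt3, a mitochondrial deacetylase, rose by 1.05, and Esrra, a nuclear receptor that works with Ppargc1a, by 0.89. Acacb, which makes the malonyl-CoA that inhibits Cpt1a, fell by 0.49 (adjusted p = 0.0279), and was not called without STZ mouse 1 (0.0827), STZ mouse 3 (0.0532), Con mouse 2 (0.0947) or Con mouse 3 (0.0723). Ppara, the nuclear receptor best known for switching these genes on, was at 16.2 ± 3.83 RPKM in Con and 20.9 ± 6.09 RPKM in STZ (SD, n = 3) and was not called (0.34, 95% interval -0.18 to 0.86). Fgf21, a hepatic hormone and Ppara target, was at 0.92 ± 0.122 and 0.663 ± 0.287 RPKM (SD, n = 3) and was not called (-0.22, 95% interval -0.84 to 0.40).

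**Figure D4:**
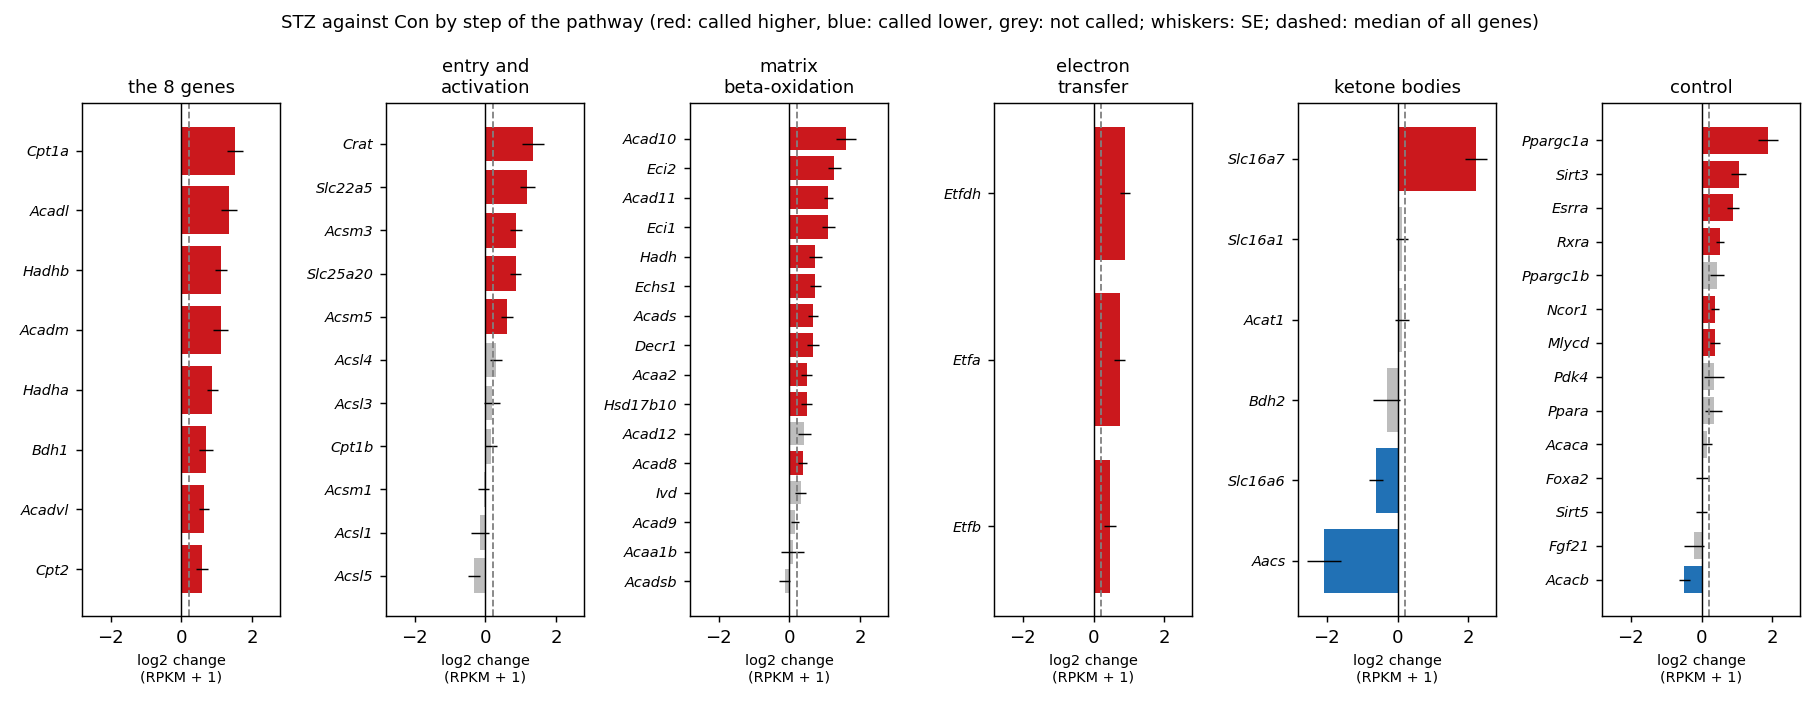
Log2 change of RPKM + 1 in STZ against Con (x axis, shared scale) of the 8 genes and of the tested genes of the 5 lists that are reported here, with SE whiskers; red bars rose, blue bars fell, grey bars were not called and the dashed line is the median of all genes. Red bars fill the electron transfer panel, and blue bars occur for Slc16a6, Aacs and Acacb.

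The comparisons of A10-FMT and of Con-FMT with STZ ask whether transferred microbiota moved these genes in diabetic mice. Neither moved a member past the threshold. In A10-FMT against STZ limma called 0 of 8, where 0.226% of all genes were called; at an unadjusted p under 0.05 there was 1 member, Acadvl, and 2212 genes. In Con-FMT against STZ limma called 0 of 8, where 0.00943% of all genes were called, with 0 members and 2131 genes at an unadjusted p under 0.05. The small shares of all genes depended on STZ mouse 3. Once it was dropped, limma called 1343 genes after A10-FMT and 1636 after Con-FMT, both against STZ. The 8 genes stayed uncalled in both fits. Dropping any other mouse left at most 113 and 17 genes called.

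Acadl was listed at 114.07, 124.38 and 128.04 RPKM in A10-FMT and at 179.36, 94.20 and 125.65 RPKM in Con-FMT. Every A10-FMT mouse was under every STZ mouse, while the Con-FMT mice overlapped the STZ mice. The change was -0.48 in A10-FMT against STZ (95% interval -0.97 to 0.0014, adjusted p = 0.240) and -0.41 in Con-FMT against STZ (95% interval -0.90 to 0.076, adjusted p = 0.320). Acadvl was listed at 177.24, 170.97 and 195.48 RPKM in A10-FMT, also under every STZ mouse, a change of -0.33 (adjusted p = 0.228). Hadha and Hadhb showed the same separation, with changes of -0.25 and -0.33. These 4 genes without overlap stand beside 13.9% of all genes with every A10-FMT mouse lower than every STZ mouse.

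Cpt1a was listed at 113.94, 103.18 and 109.90 RPKM in A10-FMT, within the range of the STZ mice. Its change of -0.13 had a 95% interval of -0.64 to 0.39, so a change in either direction within these bounds was not resolved. Bdh1 was listed at 110.77, 109.85 and 108.20 RPKM in A10-FMT and at 145.58, 89.91 and 103.65 RPKM in Con-FMT. It was the only one of the 8 with a higher fitted mean after both transfers than in STZ, by 0.16 (95% interval -0.28 to 0.59) and 0.17 (95% interval -0.26 to 0.61). In A10-FMT the mice were close together for most genes (SD of 1.24 RPKM for Cpt2 and 1.30 RPKM for Bdh1). In Con-FMT they were wide apart, with mouse 1 the highest for 8 of 8 genes and for 59.7% of all genes, and mouse 2 the lowest for 7 of 8 genes and for 50.8% of all genes.

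Against Con, the recipients still showed higher levels. In A10-FMT against Con 6 of 8 rose, where 18.4% of all genes were called and 15.9% called higher: Cpt1a by 1.39 (adjusted p = 0.00447), Acadl by 0.86, Bdh1 by 0.84, Hadhb by 0.78, Acadm by 0.75 and Hadha by 0.62. Cpt2 (0.45, adjusted p = 0.0899) and Acadvl (0.31, adjusted p = 0.160) did not pass. In Con-FMT against Con 8 of 8 rose, where 19.4% of all genes were called and 17.5% called higher, from 0.51 for Acadvl (adjusted p = 0.0358) to 1.28 for Cpt1a (adjusted p = 0.00745). STZ against Con uses the same Con mice, so the 3 comparisons are not independent.

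Of the other pathway genes 20 rose and 2 fell in A10-FMT against Con, and 24 rose and 1 fell in Con-FMT against Con, where 2.47% and 1.89% of all genes were called lower. Slc25a20 rose by 0.57 and 0.65. Acacb fell by 1.01 and 1.08 (adjusted p = 0.00298 and 0.00264). Ppargc1a rose by 0.96 in Con-FMT against Con (adjusted p = 0.0379). With quantile normalization the calls of Slc25a20 (0.122 and 0.0759) were lost in both comparisons and that of Ppargc1a in Con-FMT (0.0651). Without Con mouse 1 those of Slc25a20 (0.132 and 0.0866) and Ppargc1a (0.121) were lost.

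The counts against Con fell when some single mice were left out, as did the counts of all genes. Acadl in A10-FMT against Con was at 0.87 without Con mouse 3 (limma, adjusted p = 0.0697) and at 0.73 without Con mouse 1 (0.101). Without A10-FMT mouse 3, without Con mouse 1 or without Con mouse 3, 1 of the 8 was called in A10-FMT against Con, and without A10-FMT mouse 1, 2 were; of all genes 623, 547, 687 and 865 were then called, where all mice gave 1953. Without Con-FMT mouse 1, without Con mouse 1 or without Con mouse 3, 2 of the 8 were called in Con-FMT against Con, and without Con-FMT mouse 3, 5 were; of all genes 603, 615, 705 and 1001 were then called, where all mice gave 2059. With quantile normalization 1 and 3 of the 8 were called, where all genes called higher and lower numbered 588 and 521, and 446 and 378; Acadvl in A10-FMT against Con was then at -0.01. Cpt1a was called in all 15 alternatives that kept the threshold of 0.05 in both comparisons, and 0 of the 8 passed the study's stricter limits in either.

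A10-FMT and Con-FMT differ only in the donors of the microbiota. Between them limma called 0 of 8, where 0% of all genes were called, and 0 members and 303 genes had an unadjusted p under 0.05. The changes of the 8 ran from -0.20 for Acadvl to 0.10 for Cpt1a. For Cpt1a the 95% interval was -0.41 to 0.62.

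The groups known only from the labels were tested in a fit of all 18 libraries with 10822 genes. AOS against Con asks where these genes stood under AOS without streptozotocin: limma called 0 of 8, where 0.00924% of all genes were called, and 0 members and 781 genes had an unadjusted p under 0.05. Cpt1a was listed at 62.25, 51.59 and 52.94 RPKM in AOS, and all 3 AOS mice were above all 3 Con mice. Acadl was listed at 92.74, 87.10 and 86.55 RPKM, again above every Con mouse, and Hadhb and Bdh1 showed the same. These 4 of 8 stand beside 19.1% of all genes with every AOS mouse higher. The fitted differences were 0.42 for Cpt1a (95% interval -0.11 to 0.95, adjusted p = 0.776), 0.41 for Acadl (95% interval -0.06 to 0.87), 0.36 for Bdh1 and 0.34 for Hadhb, and the smallest was 0.10 for Cpt2.

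STZ+AOS against AOS repeats the streptozotocin comparison in mice that also had AOS. In it 7 of 8 rose, where 37.9% of all genes were called and 31.8% called higher. Cpt1a rose by 0.97 (SE 0.25, adjusted p = 0.00791), Acadl by 0.87, Acadm by 0.85 and Hadhb by 0.64, and Cpt2, Acadvl and Hadha by 0.46 to 0.47. Bdh1 was listed at 49.74, 140.18 and 65.31 RPKM in STZ+AOS and at 78.78, 80.45 and 75.62 RPKM in AOS. STZ+AOS mouse 2 was far above the AOS mice and the other mice of its group were below them, and the fitted difference was -0.02 (95% interval -0.62 to 0.58, adjusted p = 0.957). Mouse 2 was the highest STZ+AOS mouse for 8 of 8 genes, and for 32.9% of all genes. In the same comparison 1 of 9 hepatocyte markers rose and 3 fell, and 1 of 6 red cell markers (Alas2) fell, with sums of 414 to 2277 RPKM in STZ+AOS and 3104 to 4018 RPKM in AOS. Of the Kupffer cell, endothelial and stellate cell markers 1 each rose. Of the pancreas list only Cela1 passed the filter, with a change of -3.00, while Prss1, Ins1 and Ins2 averaged 0 RPKM in AOS. Their part in the result was not tested.

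Under median-ratio scaling 3 of the 8, Cpt1a, Acadl and Acadm, were called in STZ+AOS against AOS, with 1313 genes higher and 1333 lower. Without STZ+AOS mouse 2, or without AOS mouse 3, 4 of the 8 were called, with 4045 and 2955 of all genes. Over the 14 alternatives that kept the threshold of 0.05 Cpt2 was called in 6 and Hadha in 7, and Cpt1a, Acadm and Acadl in 14; at the study's stricter limits 0 of the 8 passed. Of the other pathway genes 15 rose and 7 fell, where 6.11% of all genes were called lower. Slc22a5 rose by 1.37 (adjusted p = 0.000215), Ppargc1a by 1.79 and Esrra by 1.16. The genes that fell were Acsl1, Acsl5, Bdh2, Aacs, Fgf21, Acaca and Acacb. Of these, Aacs and Acacb also fell in STZ against Con, and the others were not called there. For Fgf21, Bdh2 and Acaca every AOS mouse was above every Con mouse, as in 19.1% of all genes. Their means were 2.43, 12.85 and 14.05 RPKM in AOS and 0.92, 6.84 and 10.3 RPKM in Con. Acsl1, Acsl5, Aacs and Acacb overlapped, and none of these genes was called in AOS against Con. Fgf21 was listed at 2.81, 2.20 and 2.29 RPKM in AOS and at 0.81, 1.21 and 0.65 RPKM in STZ+AOS (-0.87, adjusted p = 0.0146; 0.112 with a pseudocount of 0.1 and 0.0510 without STZ+AOS mouse 3), and Acsl1, the main long-chain acyl-CoA synthetase of the liver, changed by -0.88.

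In STZ+AOS against STZ limma called 0 of 8, where 0% of all genes were called, and 0 members and 657 genes had an unadjusted p under 0.05. The differences ran from -0.35 for Bdh1 (95% interval -0.95 to 0.26) to 0.03 for Acadvl (95% interval -0.27 to 0.32). The difference between the streptozotocin effects with and without AOS was negative for all 8, with a median of -0.44 beside -0.01 for all genes, and 0 of 8 passed, where 0% of all genes were called and 0 members and 584 genes had an unadjusted p under 0.05. It was -0.70 for Bdh1 (95% interval -1.55 to 0.15, adjusted p = 0.856) and -0.55 for Cpt1a (95% interval -1.29 to 0.20). For Cpt2 it turned positive without Con mouse 1 (0.0074), STZ mouse 3 (0.029) or STZ+AOS mouse 3 (0.014).

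Across all 6 groups the order of the means was Con, AOS, A10-FMT, Con-FMT, STZ+AOS and STZ for Acadm, Acadl, Hadha and Hadhb. Con and AOS were the lowest groups for all 8 genes. From the third place up, neighbouring groups overlapped in every gene. The gap between AOS and the lowest streptozotocin group was without overlap in 6 genes, and Acadvl and Bdh1 were the exceptions. That lowest group was picked per gene from these same means: Con-FMT for Cpt1a, STZ+AOS for Bdh1 and A10-FMT for the others. How many of all genes show these orders and gaps was not counted, so they are not read as particular to the 8. Bdh1 had the lowest mean in STZ+AOS among the groups given streptozotocin and the highest in Con-FMT.

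The 5 genes most like the mean of the 8 were Abat, Eci1, Dpys, Ndufs1 and Upb1. Likeness was the mean absolute difference, over the 18 libraries, of log2(RPKM + 1) minus the gene's own Con mean; it was 0.0716 for Abat and 0.104 for Upb1, and the median over 10814 genes was 0.505. Eci1 is an enoyl-CoA isomerase of the same pathway and Ndufs1 a subunit of complex I, while Abat breaks down the amino acid GABA and beta-alanine, and Dpys and Upb1 carry out later steps of pyrimidine breakdown. Among the 8 themselves the distance to their mean was smallest for Hadhb (0.0866) and largest for Cpt1a (0.405). The libraries are shared by all genes compared, so the likeness is a description.

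**Figure D5:**
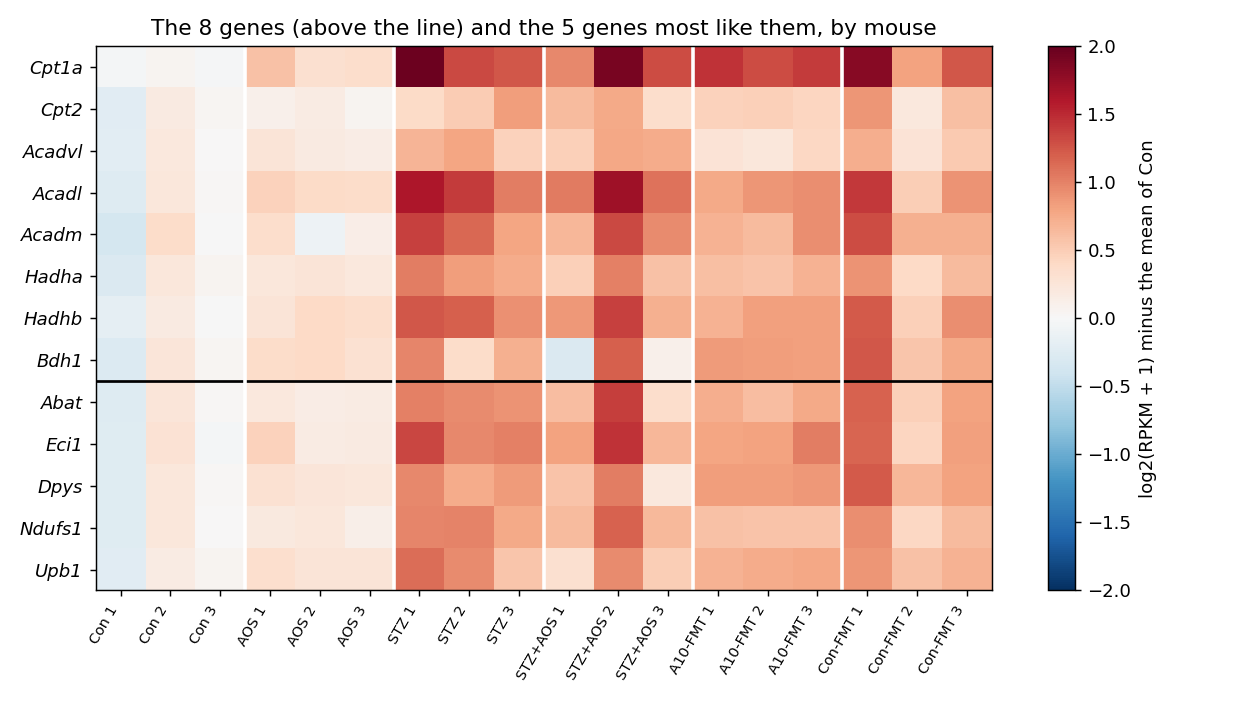
Log2(RPKM + 1) minus the gene's Con mean (colour) for the 8 genes and, below the line, the 5 genes most like their mean (rows) in the 18 mice (columns). The Cpt1a row holds the deepest red, and Bdh1 in STZ+AOS mouse 1, at 49.74 RPKM, is the pale blue cell among the mice given streptozotocin.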

How the data were processed

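Liver mRNA of 18 mice was sequenced, and the values deposited by the authors are RPKM according to their methods (reads per kilobase, scaled to mapped reads), made from reads mapped with SOAPaligner; the submitters' processing notes instead name Bowtie 0.12.2 and mm10, and which was used is not settled here. The division by length and mapped reads is theirs, so depth enters only through the precision of low values. Of the columns 0 lacked a sample. Gene positions are from GENCODE M21 (GRCm38), and promoter windows from RefSeq (GRCm38.p6). No protein sequence was used.

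From the RPKM values log2(RPKM + 1) was computed, and a gene entered a fit when 3 or more libraries had 1 RPKM. limma (3.58.1, under R 4.3.3; eBayes with trend) was fitted to the 12 libraries of the Con, STZ and both FMT groups (10602 genes), and to all 18 (10822 genes) for comparisons with AOS or STZ+AOS, with Benjamini-Hochberg adjustment over all genes. The model was tested on simulated data. The ratio of Hadha to Hadhb was tested by an exact permutation test. Nothing says more than that mice were separate animals of a group, and no batch is labelled. Marker lists and pathway lists were read by counts.

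The 8 genes and the lists were chosen with earlier results of these data known. Named were the 8 genes, Cpt1b, Slc25a20, Ppara and Fgf21, per list the 3 called genes with the largest rise and the 3 with the largest fall in STZ against Con, pathway genes called in other comparisons (here by counts and examples), and the 5 genes most like the 8. Some genes that this rule names are not reported here.

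Alternatives were median-ratio scaling, quantile normalization, a pseudocount of 0.1, other filters, eBayes without trend and a replicate block. Other sets of groups were also fitted, and each mouse was left out in turn. The study's limits (FDR of 0.001 and a log2 ratio of 1) were applied to the limma values, not to the study's own test. The tests of the study by read counts, and its spleen, microbiome and blood data, were not used here.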

Additional observations from a re-analysis of the deposited data

How the results depend on the processing

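The study's limits (FDR of 0.001 and a log2 ratio of 1) were set on the limma values. At them 0 of the 8 genes passed when STZ, A10-FMT or Con-FMT was set against Con, or STZ+AOS against AOS. Of all genes 191, 33, 21 and 298 did. Of the other pathway genes 3 passed in STZ against Con, where the main threshold called 31. Quantile normalization left 1 of 8 called in A10-FMT against Con and 3 of 8 in Con-FMT against Con, and median-ratio scaling left 3 of 8 in STZ+AOS against AOS. Both scalings left 23 of the other pathway genes called in STZ against Con. With each mouse left out in turn, the members called against Con ranged from 6 to 8 for STZ, 1 to 6 for A10-FMT and 2 to 8 for Con-FMT, from 4 to 7 in STZ+AOS against AOS, and 0 in each other comparison; the other pathway genes called in STZ against Con ranged from 23 to 33. The Hadha to Hadhb difference ranged from -0.31 to -0.19 in log2. The cause of these losses was not tested, except that fewer mice or a stricter limit were set by construction.

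Mice share numbers across groups. Deviations of same-numbered mice correlated at -0.249 to 0.472 (median 0.0315, 45 pairs). Those of differently numbered mice of different groups correlated at -0.534 to 0.449 (median -0.0127, 90 pairs). The ranges overlapped widely, so the numbers were not taken as pairs. With the replicate block the members called against Con were 8 for STZ, 5 for A10-FMT and 6 for Con-FMT, with 7 in STZ+AOS against AOS and 0 in the others, and 26 of the other pathway genes in STZ against Con.

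No member called in a comparison changed sign under any alternative run. With 3 mice a group, no depth per library and a spread shared across groups, differences under the intervals given could not be resolved.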

Other observations

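Genes of the mitochondrial respiratory chain and citrate cycle, the machinery that takes the electrons and acetyl-CoA of fatty acid oxidation, were read from a list of 24. In STZ against Con 22 of 24 rose and 0 fell, with a median change of 0.80 beside 0.21 for all genes, where 33% of all genes were called higher. Chosen after their values were seen, Idh2 (the mitochondrial NADP-dependent isocitrate dehydrogenase) rose by 2.04 (limma, adjusted p = 0.00105) and Fh1 (fumarase) by 1.52, while Cs (citrate synthase) stood at -0.21 and Cox6c at 0.42 and neither was called. All 11 genes of a list for mitochondrial mass and import rose, with a median of 0.56. Under median-ratio scaling 19 of the 24 rose and 1 fell, and 7 of the 11 rose; with quantile normalization 19 rose and 1 fell, and 6 rose, where 14% of all genes were called higher under either. In STZ+AOS against AOS 19 of 24 and 9 of 11 rose, where 31.8% of all genes were called higher, and 11 and 5 did under median-ratio scaling, where 12.2% were. In A10-FMT against STZ 0 of 24 and 0 of 11 were called, and the medians were -0.32 and -0.23 beside -0.05 for all genes; in Con-FMT against STZ 0 of 24 and 0 of 11 were called, and the medians were -0.22 and -0.19 beside -0.03.

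Abat, which breaks down GABA and beta-alanine, was at 66.4 RPKM in Con and 128 RPKM in STZ by group means. Dpys, the dihydropyrimidinase, was at 118 and 213 RPKM and Upb1, the beta-ureidopropionase, at 114 and 210 RPKM. These 3 were picked as most like the 8 over these same libraries, so their levels are a description.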
